A study of Mus musculus with 16 samples.

Results

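The question here was how the response of muscle mesenchymal stromal cells to CGRP changed between 4 h and 8 h after injection. For each gene the CGRP effect at 4 h (CGRP minus PBS) was subtracted from the CGRP effect at 8 h, which uses all 16 of the 16 libraries of the series. The cells were sorted from hindlimb skeletal muscle of C57BL/6 mice aged 8 weeks. Mice had received either CGRP or PBS by intraperitoneal injection, and cells were isolated 4 h or 8 h later. Each of the 4 groups (PBS 4 h, CGRP 4 h, PBS 8 h and CGRP 8 h) held 4 biological replicates, and each library was made from 1000 double-sorted cells. No mouse carried a named allele or transgene per the labels. The sources used here give neither the gate, the dose and the collection days nor whether a replicate was 1 mouse or a pool. The p-values measure the spread between these libraries.

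CGRP is a neuropeptide released by sensory nerve endings. It signals through a receptor made of CALCRL and RAMP1, which raises cyclic AMP and activates the transcription factor CREB. CREB target genes usually switch on fast and fade again, partly because some of them, such as Crem and phosphodiesterases, damp the pathway. Mesenchymal stromal cells of muscle make matrix, cytokines and growth factors around the fibres.

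The libraries held 6373713 to 10011920 counts and 21138 to 25579 detected genes each. The stromal identity was measured with 16 markers, all detected, whose summed level was 142952 to 191495 library-size-scaled counts (CPM) in the 16 libraries. It was 142952 to 162498 CPM in the 8 CGRP libraries and 166965 to 191495 CPM in the 8 PBS libraries. Of the 16 markers, 6 fell and 2 rose at 4 h, and 4 fell and 2 rose at 8 h. Myofibre markers summed to 164 to 220 CPM in CGRP 8 h and 236 to 355 CPM in PBS 8 h, with no overlap, and 2 of 14 tested fell at 8 h, while the sums overlapped at 4 h. Macrophage markers summed to 10.3 to 26.3 CPM, with 10 of 16 under 1 CPM in every library, and lymphocyte markers summed to at most 2.43 CPM, with Gzma and Il7r at 0. All 9 neutrophil markers were under 1 CPM in every library. The 12 pericyte and smooth muscle markers summed to 93.0 to 110 CPM in the CGRP 4 h libraries and 136 to 219 CPM in the other 12. Cspg4 and Des made up most of that sum. Gm10800, a gene model that collects repeat-derived reads, made up 1.77% to 2.45% of each library in PBS 8 h replicates 1 to 3 and at most 1.01% elsewhere. A bulk library cannot tell fewer cells of a type from less RNA per cell.

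At 4 h, 1094 genes rose (7.84%) and 1168 fell (8.37%) with CGRP, together 16.2% of the 13949 tested, by edgeR's quasi-likelihood test at an adjusted p under 0.05. At 8 h, 698 rose (5.00%) and 512 fell (3.67%), together 8.67%, and without PBS 8 h replicates 1 to 3, those high in Gm10800, 67 rose and 79 fell. Of the 8 h calls 57.7% were higher, but under upper-quartile scaling 531 rose and 649 fell, so that 45.0% were higher. At 4 h that scaling gave 913 and 1381. Leaving out CGRP 4 h replicate 4 lowered the count of early risers to 696. Of the 8 h libraries, leaving out CGRP replicate 1 gave 332 higher and 245 lower, CGRP replicate 4 gave 390 and 286, PBS replicate 1 gave 432 and 317, PBS replicate 3 gave 453 and 336, and PBS replicate 4 gave 423 and 273. The difference between both effects was called for 156 genes, 1.12% of those tested, of which 97 (0.695%) had a higher effect at 8 h and 59 (0.423%) a lower one. These shares over all genes tested are the background for the counts of each gene list below. A further look at the unadjusted p found 1996 genes under 0.05. The difference has a wider error than either effect, with a median SE of 0.26 against 0.19 on the log2 scale. A missing call for the difference therefore does not show that the effect stayed the same.

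Combining the calls at 4 h, at 8 h and of the difference gave the time classes. Transient genes (called at 4 h, not at 8 h, with a called difference) numbered 101, with 40 raised and 61 lowered at 4 h. Fading genes (called at both times in one direction, smaller at 8 h) numbered 10, and 1 gene grew. Late genes (called at 8 h, not at 4 h) numbered 27, with 17 raised and 10 lowered. In 23 of the 27 the uncalled 4 h effect had the opposite sign. The median 4 h effect was -0.19 for late raised and 0.19 for late lowered genes. In 14 genes the effect reversed (called at both times in opposite directions), 13 of them from lower at 4 h to higher at 8 h. Another 3 genes (Galk1, H2afz and Zfp638) had a called difference and neither effect called. Lasting genes (called at both times in one direction with no called difference) numbered 546, with 316 raised and 230 lowered. For 1590 genes called at 4 h alone and 612 called at 8 h alone the difference was not called, so these data do not place them.

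**Figure D1:**
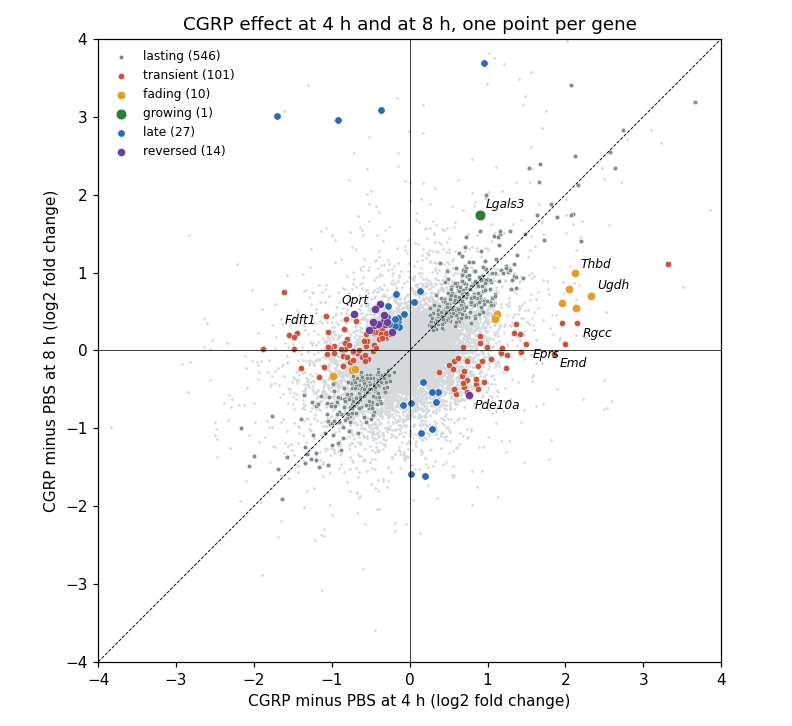
Each point is a gene, with the CGRP effect at 4 h on the x axis and at 8 h on the y axis (log2 fold change, CGRP minus PBS). Colours mark the time classes of the legend with their number of genes, with darker grey for lasting genes. Light grey points are all other genes, including those called at 4 h or 8 h alone with no called difference. The dashed line marks equal effects, and 19 genes lie outside the axes at 4 log2 units. The transient genes lie along the horizontal axis, the late genes along the vertical axis and the lasting genes along the diagonal.

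Early effects were on average smaller at 8 h. Of the 1094 genes raised at 4 h, 927 had a positive effect at 8 h, and their median log2 effect went from 0.64 to 0.31. Of the 1168 genes lowered at 4 h, 944 had a negative effect at 8 h, and the median went from -0.58 to -0.22. No library enters both the 4 h and the 8 h comparison. Over all genes tested, 47.6% had a positive effect at 8 h and the median was -0.02. Genes picked by a call also had the larger median at the time that picked them when they were picked at 8 h. For the 698 genes raised at 8 h the median was 0.54 at 8 h and 0.35 at 4 h, and for the 512 lowered it was -0.59 and -0.38.

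More genes changed between the times after CGRP than after PBS. Between 4 h and 8 h, 1012 genes changed after CGRP (7.26% of those tested, 4.20% up and 3.05% down) and 72 after PBS (0.516%, with 0.265% up and 0.251% down). The count after PBS was 17 without PBS 8 h replicate 1, 280 without PBS 4 h replicate 4, and also moved by over 1.5 times without any 1 of 7 other libraries. The count after CGRP was 666 without CGRP 8 h replicate 2. Among the 156 genes with a called difference, 139 changed with time after CGRP and 11 after PBS. These comparisons share their libraries with the difference, so the counts describe the same data. Of the 101 transient genes, 96 changed with time after CGRP alone.

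The call of the difference depended on single libraries for many genes. It was kept for 61 of the 156 genes whichever of the 16 libraries was left out, among them 37 transient, 11 reversed, 7 late and 5 fading genes and the growing one. The number of called differences fell from 156 to 80 without PBS 8 h replicate 1, 85 without PBS 4 h replicate 2, 89 without PBS 8 h replicate 3 and 98 without PBS 8 h replicate 4. It was 100 without CGRP 4 h replicate 1, 100 without CGRP 8 h replicate 3 and 101 without CGRP 4 h replicate 4. When PBS 8 h replicates 1 to 3 were left out, it was 53, of which 39 were among the 156. In that fit PBS 8 h has 1 library, assumed to vary like the other groups. Over the single libraries left out the transient class held 52 to 141 genes, with the lowest count without PBS 4 h replicate 2. The fading class held 3 to 12, with the lowest without PBS 8 h replicate 1, and the reversed class 6 to 17, with the lowest without CGRP 8 h replicate 1. Genes described below kept the call in all 16 of these fits unless stated. Leaving out PBS 8 h replicates 1 to 3 together ended the call of Uap1, Gfpt2, Dio2, Cstb, Adgrd1, Crem, Atf3, Stat3, Il6ra, Meox1, Fdft1, Stard4, Msmo1, Cxcl16, Psmb8 and Psmb10. It also ended that of the reversed genes Pdlim4, Bok, Mlkl, Angptl1, Arf2 and Ppp1ca and of the late genes Akr1b8, Cav1, Pfn1, Tubb5, Eno1, Rcan2, Cdkn1b, Gm10715 and Gm10719. Leaving out the 4 libraries with the most genes detected ended the call of Gfpt2, Pmvk, Crem, Stat3, Stard4, Msmo1, Cxcl16, Psmb8, Psmb10 and Lgals3. The same fit ended the call of the reversed genes Cavin3, Pdlim4, Lmna, Mlkl, Mrgprf, Arf2 and Ppp1ca. Among late genes it ended the call of Anxa2, Pfn1, Sfxn3, Cav1, Tubb5, Eno1, Slc43a1, Rcan2 and Cdkn1b. With Gm10800 as a covariate the call ended for Uap1, Gfpt2, Dio2, Cstb, Adgrd1, Crem, Rgcc, Stat3, Msmo1, Cxcl16, Psmb8 and Psmb10. That fit also ended it for the reversed genes Pdlim4, Angptl1, Arf2 and Ppp1ca and the late genes Eno1, Rcan2, Cdkn1b, Gm10715 and Gm10719. The last gene inside the threshold was Vegfd (adjusted p = 0.0498) and the first outside was Nudt2 (adjusted p = 0.0518).

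Genes that rose at 4 h and had a smaller effect at 8 h included enzymes that make the sugar precursors of hyaluronan. Ugdh, which makes UDP-glucuronate, had the smallest p of the difference. Its level was 534, 481, 562 and 503 CPM in the PBS 4 h libraries and 2615, 2503, 2282 and 3021 CPM after CGRP. At 8 h it was 417, 412, 399 and 351 CPM after PBS and 680, 587, 561 and 745 CPM after CGRP. The groups did not overlap at either time, as in 18.9% of genes tested at 4 h and 14.8% at 8 h, and the early rise was the larger. The log2 effect was 2.33 ± 0.10 (SE) at 4 h and 0.70 ± 0.10 at 8 h, a difference of -1.62 ± 0.14 (adjusted p = 4.28e-07).

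Uap1, which makes UDP-N-acetylglucosamine, was at 339, 439, 454 and 426 CPM after PBS and 1844, 1458, 1193 and 2366 CPM after CGRP at 4 h. Its 8 h levels were 421, 383, 372 and 370 CPM against 686, 747, 538 and 704 CPM. Its effect went from 2.05 ± 0.17 to 0.79 ± 0.17 (adjusted p of the difference = 0.0157). Gfpt2, the entry enzyme of the hexosamine pathway, averaged 504 CPM after PBS and 1352 CPM after CGRP at 4 h, then 528 and 519 CPM at 8 h. Its difference (adjusted p = 0.0386) was lost without any 1 of 12 of the 16 libraries, with an adjusted p of up to 0.0998. Of the 14 genes tested in the list of hyaluronan and UDP-sugar synthesis, 7 rose at 4 h and 6 at 8 h, 4 of them at both times, and these 3 had a called lower effect at 8 h. With PBS 8 h replicates 1 to 3 left out, which let 16 genes of the list pass the filter, 6 rose at 4 h and 2 at 8 h, and 1 difference was called.

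Of the transient genes Eprs had the smallest p of the difference. It encodes the glutamyl-prolyl-tRNA synthetase that charges tRNAs with glutamate and proline. It was at 167, 155, 188 and 150 CPM after PBS and 419, 450, 484 and 508 CPM after CGRP at 4 h. The 8 h values were 154, 186, 161 and 140 CPM and 193, 148, 161 and 174 CPM. The groups were far apart at 4 h and overlapped at 8 h. The effect was 1.5 ± 0.10 and then 0.08 ± 0.10 (adjusted p of the difference = 5.49e-06).

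Dio2, the deiodinase that activates thyroid hormone and a known cyclic AMP target, was at 14.8 to 23.4 CPM after PBS and 67.7 to 94.0 CPM after CGRP at 4 h. By 8 h it stood at 20.4 to 29.1 CPM and 30.4 to 45.3 CPM. Its effect went from 1.95 ± 0.16 to 0.61 ± 0.16 (adjusted p = 0.00321). The difference of Dio2, like that of Uap1, was not called without PBS 8 h replicates 1 to 3 or with Gm10800 as a covariate. Thbd, thrombomodulin, which restrains clotting, was at 220 to 308 CPM and 1014 to 1264 CPM at 4 h, and at 174 to 199 CPM and 356 to 417 CPM at 8 h. Its effect was 2.12 ± 0.10 and then 1.00 ± 0.10 (adjusted p = 0.000177). In both genes the CGRP libraries stayed above all PBS libraries at 8 h. The further fading genes Cstb and Adgrd1 each lost the call without any 1 of 3 libraries.

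The promoter windows of 4 of these genes are shown because CREB binds the motif TGACGTCA or its half-site TGACG, and the genes differ in how many half-sites they hold. Each window runs from 250 bases before to 50 after the start of a RefSeq transcript (GRCm38.p6), and the 4 genes were chosen after their values were seen. The Eprs window is chr1:185362794-185363093 on the plus strand. The Dio2 window is chr12:90738989-90739288, the Uap1 window chr1:170174915-170175214 and the Ugdh window chr5:65435793-65436092, all on the minus strand. The sequences read 5′ to 3′ along the gene's strand, and capitals mark TGACG or its reverse complement CGTCA.
Eprs: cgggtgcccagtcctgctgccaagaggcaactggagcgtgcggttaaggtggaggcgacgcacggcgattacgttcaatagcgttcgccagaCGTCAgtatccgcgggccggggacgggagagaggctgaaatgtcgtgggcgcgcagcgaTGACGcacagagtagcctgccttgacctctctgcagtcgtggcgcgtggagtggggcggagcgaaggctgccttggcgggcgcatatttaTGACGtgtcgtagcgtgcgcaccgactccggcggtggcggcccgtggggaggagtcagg
Dio2: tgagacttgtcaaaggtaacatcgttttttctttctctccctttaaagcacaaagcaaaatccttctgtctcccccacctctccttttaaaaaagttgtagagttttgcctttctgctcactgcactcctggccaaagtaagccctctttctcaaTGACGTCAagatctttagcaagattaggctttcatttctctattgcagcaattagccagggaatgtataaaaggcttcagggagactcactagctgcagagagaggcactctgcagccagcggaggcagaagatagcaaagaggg
Uap1: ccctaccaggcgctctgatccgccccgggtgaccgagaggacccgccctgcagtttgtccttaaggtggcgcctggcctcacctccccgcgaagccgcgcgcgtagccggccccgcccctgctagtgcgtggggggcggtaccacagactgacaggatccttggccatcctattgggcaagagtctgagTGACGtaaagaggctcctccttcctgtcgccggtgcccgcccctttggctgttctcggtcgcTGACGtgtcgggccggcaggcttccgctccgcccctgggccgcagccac
Ugdh: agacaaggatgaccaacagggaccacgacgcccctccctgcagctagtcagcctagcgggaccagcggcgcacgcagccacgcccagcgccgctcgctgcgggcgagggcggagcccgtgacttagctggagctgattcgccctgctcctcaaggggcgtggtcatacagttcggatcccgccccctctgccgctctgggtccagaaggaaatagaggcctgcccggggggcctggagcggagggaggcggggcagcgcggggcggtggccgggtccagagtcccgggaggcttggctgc
The Eprs window holds 3 half-sites and the Uap1 window 2. In the Dio2 window the pair of overlapping matches forms 1 full TGACGTCA. The Ugdh window holds neither motif. Of the 40 transient raised genes 34 matched by symbol (85.0%), and 19 of their 43 windows (44.2%) held TGACG on either strand. Of all 32851 windows in the table, which include those of genes not tested here, 20.8% held it. It was in 30.1% of the 12829 windows of genes tested and in 33.4% of the 329 windows of lasting raised genes. Only 71.6% and 78.8% of those genes matched, and all windows include untested genes, so a comparison with any of these shares is void. The full motif, which contains the half-site, was in 3 of the 43 windows (6.98%), in 1.79% of all windows and in 2.94% of those of genes tested, with the same limit. A match is a run of letters and no binding was measured here. For all 156 genes with a called difference 114 matched, too few for a share over them.

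Of the genes of cyclic AMP and CREB signalling, Crem, Pde10a and Atf3 rose at 4 h and had effects of -0.03, -0.58 and -0.47 at 8 h. Crem, which encodes CREB-family activators and repressors, was at 15.1, 11.5, 15.8 and 10.5 CPM after PBS and 32.5, 27.2, 30.9 and 27.9 CPM after CGRP at 4 h. Levels at 8 h were 12.0, 12.0, 16.4 and 11.2 CPM and 15.0, 9.92, 14.4 and 10.9 CPM. The effect was 1.17 ± 0.17 and then -0.03 ± 0.18 (adjusted p of the difference = 0.0187). Pde10a, a phosphodiesterase that breaks down cyclic nucleotides, was the one gene that rose at 4 h and fell at 8 h. It was at 15.8 to 22.3 CPM after PBS and 27.5 to 31.2 CPM after CGRP at 4 h, and at 18.01 to 25.8 CPM and 12.2 to 16.5 CPM at 8 h. The groups did not overlap at either time. Its effect turned from 0.76 ± 0.15 to -0.58 ± 0.15 (adjusted p = 0.00165).

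Atf3, a stress-induced transcription factor of the CREB family, was at 14.6 to 20.4 CPM after PBS and 25.8 to 33.4 CPM after CGRP at 4 h. At 8 h it was at 9.29 to 13.1 CPM and 6.12 to 9.69 CPM. Its effect was 0.70 ± 0.16 and then -0.47 ± 0.18, the latter not called (adjusted p of the difference = 0.0187). Of 21 genes tested in the list of cAMP and CREB targets, 5 rose and 1 fell at 4 h, none rose and 1 fell at 8 h, and these 3 had a called difference. The list's median log2 effect was 0.38 at 4 h and -0.13 at 8 h, against 0.00 and -0.02 over all genes tested. Without PBS 8 h replicates 1 to 3 the call of Crem and that of Atf3 were lost and Pde10a kept its call.

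**Figure D2:**
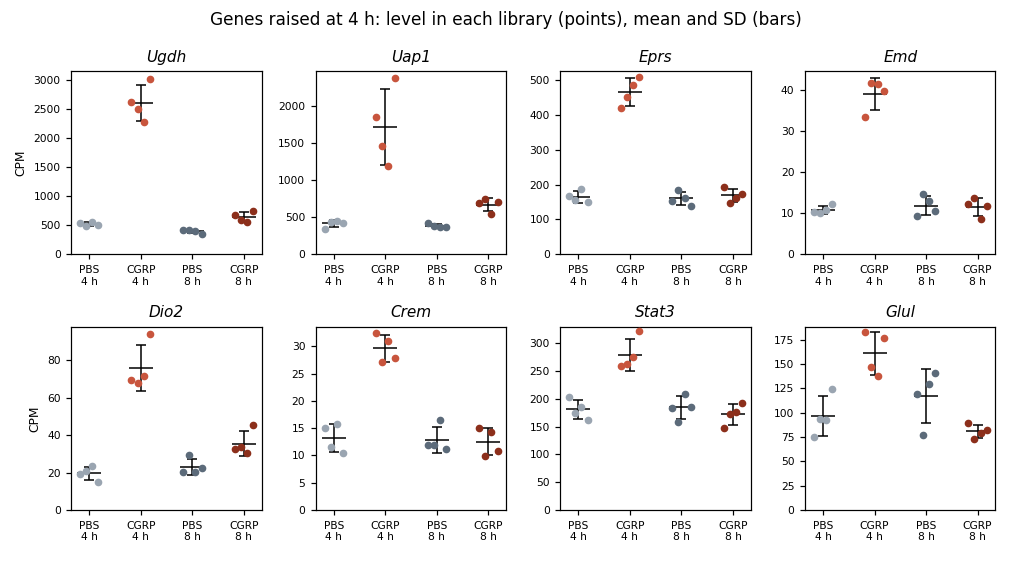
Level in CPM (y axis, from 0) of 8 genes raised by CGRP at 4 h, by group (x axis), with a point per library and the mean and SD as bars, n = 4 per group. Ugdh, Uap1 and Dio2 stayed above the PBS libraries at 8 h, and Eprs, Emd, Crem, Stat3 and Glul did not.

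Of the genes of IL-6 signalling, Stat3 and Il6ra rose at 4 h alone. Stat3, the transcription factor of that pathway, was at 203, 174, 186 and 161 CPM after PBS and 258, 262, 274 and 321 CPM after CGRP at 4 h. Its 8 h levels were 184, 159, 209 and 186 CPM and 148, 172, 176 and 192 CPM. The effect was 0.62 ± 0.10 and then -0.10 ± 0.10 (adjusted p of the difference = 0.0105). Il6ra, the IL-6 receptor chain, averaged 37.7 and 71.6 CPM at 4 h and 42.1 and 38.2 CPM at 8 h (adjusted p = 0.0251), a call lost without PBS 4 h replicate 2 or PBS 8 h replicates 1 or 4. Of 21 genes tested in the list of IL-6 family and STAT3 signalling, 9 rose and 2 fell at 4 h, and 1 rose and 2 fell at 8 h. The list's median was 0.49 at 4 h and -0.07 at 8 h. When PBS 8 h replicates 1 to 3 were left out, no difference in that list was called, and its medians were 0.50 and 0.02.

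Other transient raised genes came from several functions. Emd, emerin of the inner nuclear membrane, was at 10.3, 9.98, 10.7 and 12.3 CPM after PBS and 33.4, 41.6, 41.5 and 39.8 CPM after CGRP at 4 h. The 8 h values were 9.41, 14.6, 12.9 and 10.5 CPM and 12.1, 13.6, 8.54 and 11.8 CPM. Its difference of -1.89 ± 0.24 (adjusted p = 0.000177) took the gene from a clear rise to overlapping groups. Glul, glutamine synthetase, averaged 96.3 and 161 CPM at 4 h and 117 and 80.9 CPM at 8 h. Its effect was 0.74 ± 0.16 and then -0.53 ± 0.17, the latter short of a call (adjusted p = 0.0541). Rgcc, a regulator of the cell cycle, averaged 7.04 and 31.3 CPM at 4 h and 5.97 and 7.59 CPM at 8 h. Its difference was not called with Gm10800 as a covariate.

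The purine enzyme gene Xdh averaged 322 and 816 CPM at 4 h and 314 and 366 CPM at 8 h. Cpne8 averaged 44.6 and 119 CPM and then 43.5 and 50.5 CPM. The interferon-inducible gene Ifi204 averaged 149 and 239 CPM at 4 h, and 126 and 100 CPM at 8 h. These 3 genes lay outside the naming rule and were chosen after their values were seen, because they kept the call of the difference in all alternatives run. Ifi204 belongs to a family of similar genes whose reads may be shared. The list of interferon response, which does not hold Ifi204, went the other way at 4 h. Of its 36 tested genes none rose and 6 fell at 4 h, with a median of -0.30. At 8 h 1 rose and 1 fell, with a median of -0.07. Over the 40 transient raised genes, the log2 effect ranged from 0.38 to 3.32 at 4 h and from -0.56 to 1.11 at 8 h.

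Genes lowered at 4 h with no call at 8 h included transcription factors of mesenchymal cells. Ebf1, a factor of adipogenic and stromal precursors, was at 447, 442, 434 and 468 CPM after PBS and 258, 242, 264 and 226 CPM after CGRP at 4 h. By 8 h it stood at 430, 398, 400 and 395 CPM and 358, 413, 375 and 392 CPM. The groups were apart at 4 h and overlapped at 8 h. The effect was -0.85 ± 0.07 and then -0.08 ± 0.07 (adjusted p of the difference = 0.000208). Meox1, a homeobox factor of the somite lineage, was at 81.0 to 122 CPM and 38.4 to 60.1 CPM at 4 h, and at 110 to 141 CPM and 111 to 133 CPM at 8 h. Its effect was -1.05 ± 0.14 and then 0.05 ± 0.14 (adjusted p = 0.00637). The list of mesenchymal transcription factors held 35 tested genes. Of these 2 rose and 6 fell at 4 h, and none rose and 2 fell at 8 h. Among all genes tested 7.84% rose and 8.37% fell at 4 h, and 5.00% and 3.67% did so at 8 h. In the list Ebf1 and Meox1 alone had a called difference, against 1.12% of all genes tested. Leaving out PBS 8 h replicates 1 to 3 ended the call of Meox1 and not that of Ebf1.

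Many genes of cholesterol synthesis fell at 4 h. None was called lower at 8 h, except 1 under upper-quartile scaling, though 9 of the 25 tested had a negative 8 h effect. Fdft1, squalene synthase, was at 31.1, 23.9, 32.1 and 23.2 CPM after PBS and 7.62, 7.499, 16.7 and 8.51 CPM after CGRP at 4 h. Levels at 8 h were 23.3, 17.7, 19.9 and 14.5 CPM and 31.3, 15.8, 19.9 and 20.8 CPM. The effect was -1.45 ± 0.25 and then 0.22 ± 0.24 (adjusted p of the difference = 0.0187). Of the 25 genes tested in the list of cholesterol synthesis, 13 fell and 1 rose at 4 h, 1 rose and none fell at 8 h, and 4 differences were called. The list's median was -0.63 at 4 h and 0.04 at 8 h.

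The gene of this list that rose at 4 h was Pmvk, phosphomevalonate kinase. It was at 10.8 to 13.0 CPM after PBS and 38.4 to 61.9 CPM after CGRP at 4 h, then at 10.6 to 14.7 CPM and 15.8 to 23.9 CPM, with effects of 2.13 ± 0.17 and 0.54 ± 0.17 (adjusted p of the difference = 0.00113), and its 8 h call held in 3 of the 16 fits with a library left out. Stard4, which carries sterols, and Msmo1, a sterol oxidase, had the pattern of Fdft1 with weaker calls, lost without any 1 of 9 and 13 libraries. With PBS 8 h replicates 1 to 3 left out, 13 genes of the list of cholesterol synthesis fell at 4 h, none was called at 8 h, and Fdft1 lost its call. The list's 8 h median was then 0.32.

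Other genes in the transient lowered class had immune, signalling and surface functions. Cxcl16, a chemokine, was at 45.4 to 55.7 CPM after PBS and 19.4 to 24.5 CPM after CGRP at 4 h, and at 39.6 to 50.9 CPM and 32.7 to 39.2 CPM at 8 h. Its effect was -1.17 ± 0.12 and then -0.34 ± 0.12, the latter not called (adjusted p of the difference = 0.0152). The libraries did not overlap at 8 h either, so the later effect was smaller and is not shown to be absent. Psmb8 and Psmb10, subunits of the immunoproteasome that trims peptides for MHC class I, fell by 0.73 and 0.83 on the log2 scale at 4 h, and their 8 h effects were -0.01 and 0.02. Psmb8 lost the difference without CGRP 4 h replicate 1 or PBS 8 h replicate 1, and Psmb10 without any 1 of 7 libraries. In the list of MHC class I antigen presentation, 10 of 22 genes fell at 4 h and 3 at 8 h, against 8.37% and 3.67% of all genes tested.

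Camk1d, a calcium/calmodulin-dependent kinase, was at 92.6, 83.8, 94.6 and 84.4 CPM after PBS and 41.0, 40.3, 47.1 and 42.3 CPM after CGRP at 4 h. At 8 h it was at 69.8, 74.4, 76.6 and 64.8 CPM and 64.8, 77.4, 65.2 and 68.2 CPM. Its effect was -1.06 ± 0.09 and then -0.05 ± 0.09 (adjusted p = 0.000208). Plvap, an endothelial diaphragm protein, averaged 10.4 and 3.40 CPM at 4 h and 7.80 and 13.1 CPM at 8 h (adjusted p = 0.00155). It is one of 12 endothelial markers, whose sum was 93.9 to 153 CPM in PBS 4 h, 99.1 to 123 CPM in CGRP 4 h, 115 to 141 CPM in PBS 8 h and 95.9 to 118 CPM in CGRP 8 h. Most of that sum was Tek, which averaged 90.6 to 119 CPM over the groups, while Pecam1 averaged at most 1.16 CPM. The part of endothelial cells in the result was not tested. S100a10, the partner of annexin A2, averaged 754 and 516 CPM at 4 h and 647 and 702 CPM at 8 h. Camk1d and S100a10 were chosen after their values were seen.

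Reversed genes were lower than PBS at 4 h and higher at 8 h. Qprt, an enzyme of NAD synthesis, was at 58.7, 51.4, 46.6 and 51.8 CPM after PBS and 29.2, 31.6, 35.8 and 30.1 CPM after CGRP at 4 h. Its 8 h levels were 42.5, 49.9, 49.98 and 39.0 CPM and 63.4, 65.5, 62.5 and 58.4 CPM. The groups did not overlap at either time and stood in opposite order. The effect was -0.72 ± 0.11 and then 0.46 ± 0.11 (adjusted p of the difference = 0.000208).

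Tspo, a translocator protein of the outer mitochondrial membrane, was at 350 to 385 CPM and 227 to 285 CPM at 4 h, and at 312 to 360 CPM and 392 to 433 CPM at 8 h. Its effects were -0.53 ± 0.08 and 0.27 ± 0.08 (adjusted p of the difference = 0.000455). Emp3, an epithelial membrane protein family member, was at 302 to 330 CPM and 222 to 246 CPM, then at 238 to 300 CPM and 329 to 355 CPM (adjusted p = 0.000514). Smtn, smoothelin of the contractile cytoskeleton, was at 93.1 to 106 CPM and 60.0 to 82.5 CPM, then at 83.2 to 92.8 CPM and 110 to 117 CPM (adjusted p = 0.0014). In these 3 genes the libraries were apart at both times.

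The other reversed genes came from several functions. Cavin3 of caveolae went from -0.33 to 0.38, Pdlim4, an actin-binding adaptor, from -0.32 to 0.45, and Lmna, lamin A/C, from -0.29 to 0.36. The cell death genes Bok and Mlkl went from -0.38 to 0.59 and from -0.45 to 0.54, and the secreted Angptl1 from -0.41 to 0.32. Lmna lost the call of the difference without PBS 4 h replicate 2 or PBS 8 h replicate 1, Arf2 without CGRP 8 h replicate 3 or PBS 8 h replicate 3, and Ppp1ca without any 1 of 8 libraries. The reversal itself, which needs all 3 calls, held in fewer of the 16 fits. Qprt and Emp3 reversed in all 16, Smtn and Cavin3 in 15, Pde10a and Mrgprf in 13, and Mlkl and Angptl1 in 12. Tspo and Pdlim4 did so in 11, Bok in 10, Arf2 in 5, Lmna in 3 and Ppp1ca in 0. Emp3, Cavin3, Mrgprf, Lmna, Arf2 and Ppp1ca lay outside the naming rule. Without PBS 8 h replicates 1 to 3 the class held 5 genes. The sum of the pericyte and smooth muscle markers was also low in CGRP 4 h (93.0 to 110 CPM, against 145 to 210 CPM in CGRP 8 h), and 2 of its 7 tested markers fell at 4 h and none was called at 8 h. Of the 9 tested tenocyte markers all 9 had a negative effect at 4 h, 1 of them called, with a median of -1.50 at 4 h and 0.08 at 8 h. Their sum was 336 to 865 CPM in CGRP 4 h, overlapping the 714 to 1862 CPM of PBS 4 h. Schwann and nerve markers summed to 948 to 1062 CPM in CGRP 4 h and 1248 to 1330 CPM in PBS 4 h, with no overlap, and to 1019 to 1351 CPM and 1223 to 1297 CPM at 8 h. Of their 7 tested members 3 fell at 4 h and none was called at 8 h. Most of that sum was Pmp22, which averaged 940 to 1202 CPM over the groups, while Sox10 averaged at most 0.0520 CPM. The part of these cell types in the lowered and reversed genes was not tested.

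**Figure D3:**
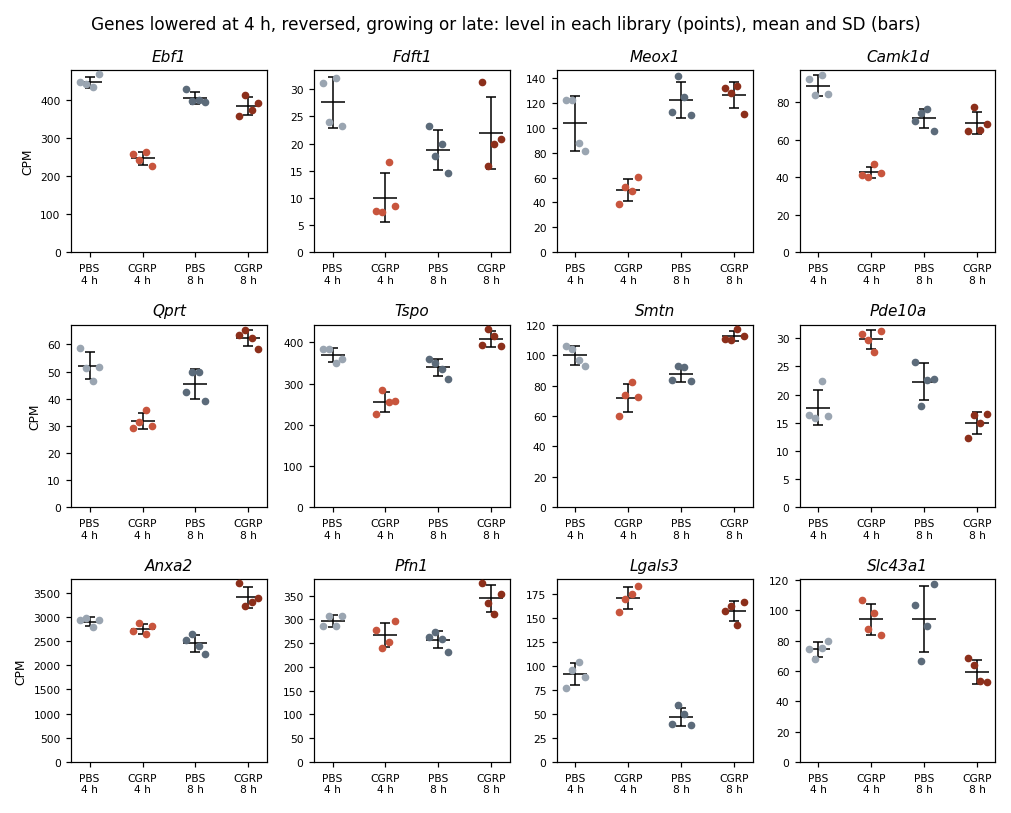
Level in CPM (y axis, from 0) of 12 genes by group (x axis), with a point per library and the mean and SD as bars, n = 4 per group. In Ebf1, Meox1 and Camk1d every CGRP 4 h library lay below all others, in Fdft1 all but 1 did, in Qprt, Tspo, Smtn and Pde10a the order of CGRP and PBS changed between the times, and in Anxa2 and Pfn1 the CGRP 8 h group was highest.

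The single growing gene was Lgals3, galectin-3, a carbohydrate-binding protein of injured and inflamed tissue. It was at 77.5, 96.1, 105 and 88.7 CPM after PBS and 156, 169, 175 and 183 CPM after CGRP at 4 h. The 8 h values were 39.7, 59.6, 49.7 and 38.8 CPM and 157, 162, 142 and 167 CPM. The PBS libraries were lower at 8 h than at 4 h, while the CGRP libraries overlapped between the times. The effect was 0.90 ± 0.11 and then 1.74 ± 0.12 (adjusted p of the difference = 0.00967). The change with time after PBS was -0.97 ± 0.12 (adjusted p = 0.000444), and after CGRP it was -0.12 ± 0.11.

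Late raised genes included proteins of the membrane cytoskeleton. Anxa2, annexin A2, was at 2931, 2971, 2779 and 2924 CPM after PBS and 2697, 2874, 2644 and 2805 CPM after CGRP at 4 h. By 8 h it stood at 2519, 2646, 2404 and 2240 CPM and 3698, 3214, 3302 and 3390 CPM. The effect was -0.07 ± 0.07 and then 0.47 ± 0.07 (adjusted p of the difference = 0.00583). The level after PBS was also lower at 8 h, by -0.24 ± 0.07, which was not called (adjusted p = 0.116), while that after CGRP rose by 0.30 ± 0.07 (adjusted p = 0.00841). Anxa2 was chosen after its values were seen.

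Pfn1, profilin, which feeds actin filaments, was at 285 to 307 CPM and 240 to 296 CPM at 4 h, and at 232 to 274 CPM and 312 to 377 CPM at 8 h. Its effect was -0.15 ± 0.08 and then 0.42 ± 0.08 (adjusted p of the difference = 0.0152). Sfxn3, a mitochondrial carrier, averaged 189 and 197 CPM at 4 h and 171 and 262 CPM at 8 h, an effect of 0.62 ± 0.08 at 8 h (adjusted p of the difference = 0.00822). Akr1b8, an aldo-keto reductase, averaged 42.4 and 37.6 CPM and then 32.9 and 54.4 CPM. Cav1, caveolin-1, averaged 686 and 567 CPM and then 492 and 732 CPM (adjusted p = 0.0168), a call lost without PBS 8 h replicate 1 (adjusted p = 0.0539). Reads of Pfn1, Akr1b8, Tubb5 and Eno1 may be shared with near-identical copies, and the difference was lost without any 1 of 9 libraries for Tubb5 and 13 for Eno1.

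Of the 10 late lowered genes, Slc43a1 and Rcan2 kept the call whichever single library was left out. Both lost it without the 4 libraries with the most genes detected. Slc43a1, an amino acid transporter, was at 67.8 to 79.8 CPM after PBS and 83.4 to 106 CPM after CGRP at 4 h, and at 66.3 to 117 CPM and 52.5 to 68.2 CPM at 8 h. Its effect was 0.34 ± 0.13 and then -0.66 ± 0.13 (adjusted p of the difference = 0.0083). The 4 h groups did not overlap, as in 18.9% of genes tested, though that effect was not called, and the 8 h groups overlapped. Rcan2, an inhibitor of calcineurin, averaged 15.6 and 17.2 CPM at 4 h and 28.4 and 13.5 CPM at 8 h. In Rcan2 the level after PBS rose with time by 0.86 ± 0.18 (adjusted p = 0.0322), and after CGRP it was -0.35 ± 0.18 (adjusted p = 0.304). Of the 27 late genes, 17 changed with time after CGRP and 7 after PBS. The late class held 13 genes without PBS 8 h replicate 1, 14 without PBS 8 h replicate 3, 16 without PBS 4 h replicate 2 and 46 without PBS 8 h replicate 2. When PBS 8 h replicates 1 to 3 were left out, it held 7 genes. The late lowered gene models Gm10715 and Gm10719 averaged 30.8 and 21.0 CPM in PBS 8 h and at most 14.3 and 9.63 CPM in the other groups, and Gm10800 was highest in the same group. Their differences were lost without any 1 of 12 and 5 libraries.

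**Figure D4:**
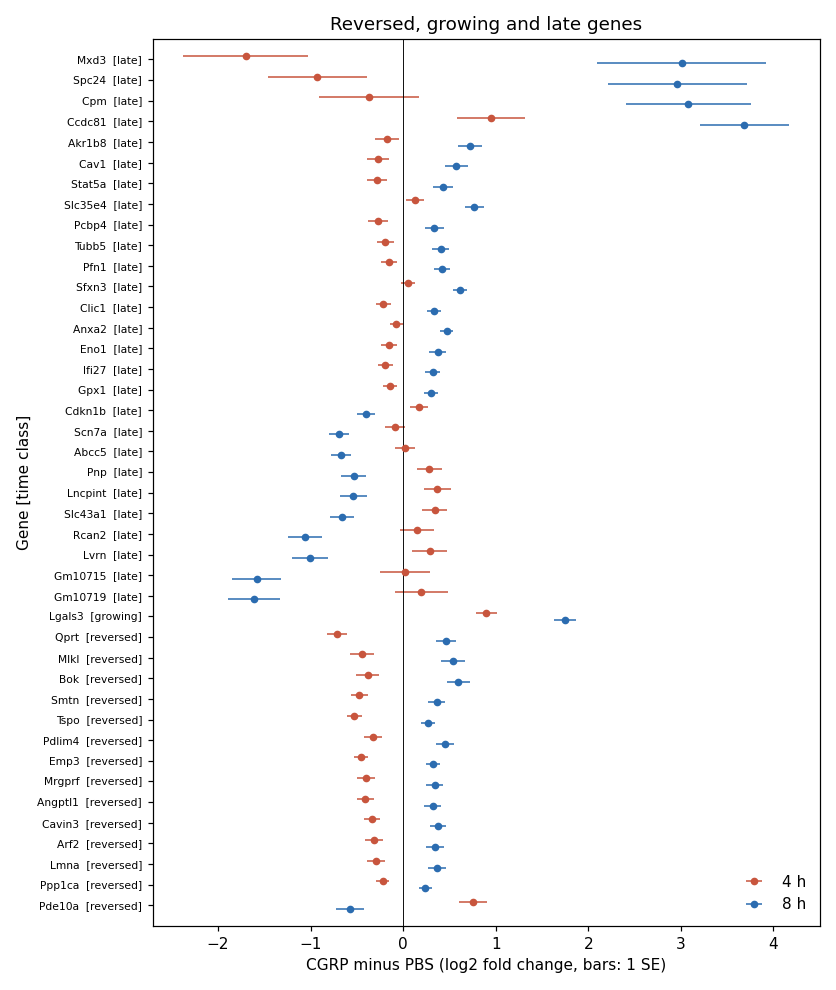
CGRP effect (x axis, log2 fold change, bars: 1 SE) at 4 h and at 8 h for the 14 reversed genes, the growing gene Lgals3 and the 27 late genes (y axis). The 13 genes from Qprt to Ppp1ca lie left of 0 at 4 h and right of 0 at 8 h, and the late genes with the longest bars are low in CPM.

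Lasting genes included Ttyh1, Vdr, Uck2, Mt2 and Gal, which rose several-fold at both times. Ttyh1, a membrane protein of the tweety family, was at 0.998, 1.04, 1.68 and 2.40 CPM after PBS and 18.5, 26.9, 48.8 and 37.8 CPM after CGRP at 4 h. Levels at 8 h were 0.636, 0.732, 2.13 and 0.941 CPM and 12.3, 13.3, 7.19 and 13.6 CPM. The effect was 4.39 ± 0.36 and 3.39 ± 0.40, and the difference of -1.0 had a 95% interval from -2.21 to 0.21. Vdr, the vitamin D receptor, was at 0.208 to 1.55 CPM and 7.86 to 16.6 CPM at 4 h, and at 0 to 0.537 CPM and 1.68 to 2.48 CPM at 8 h. Its pooled counts gave a ratio of 13.0 (95% counting interval 9.06 to 19.2) at 4 h and 9.76 (4.27 to 27.5) at 8 h, while its level after CGRP fell by 2.61 ± 0.42 on the log2 scale between the times (adjusted p = 0.000389).

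Uck2, uridine-cytidine kinase, averaged 7.77 and 35.1 CPM at 4 h and 6.45 and 28.3 CPM at 8 h. Its difference was -0.03 with an interval from -0.97 to 0.90. Mt2, a metal-binding metallothionein, averaged 107 and 633 CPM and then 41.2 and 241 CPM. Gal, the neuropeptide galanin, was at 41.7 to 120 CPM in CGRP 4 h and 13.6 to 40.3 CPM in CGRP 8 h, and at most 3.36 CPM in the PBS libraries. Calca, which encodes CGRP itself, had 70 counts in CGRP 4 h against 2 in PBS 4 h, and 109 in CGRP 8 h against 0 in PBS 8 h. With the PBS 8 h group set to a floor of 3 counts in all, the 8 h ratio was 29.5. The exact 95% lower limit of that ratio without the floor was 23.6. Calcb had the widest change among lasting genes, from a ratio of 230 (40.8 to 9110) at 4 h to 5.18 (2.44 to 12.7) at 8 h, on 1 and 8 PBS counts, and its difference was not called (adjusted p = 0.0739). Among the receptor genes, Ramp3 rose at both times on few counts. It had 109 counts after CGRP against 6 after PBS at 4 h, those 6 in 1 library, and 40 against 4 at 8 h. The ratios were 18.4 (8.18 to 51.2) and 8.13 (2.94 to 31.3). Calcrl rose at 4 h (0.71 ± 0.12) with 0.29 ± 0.12 at 8 h, and Ramp1 was not called at either time.

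Lasting lowered genes included Fibin, a secreted fin-bud factor, which averaged 81.1 and 27.4 CPM at 4 h and 88.5 and 34.1 CPM at 8 h. Myl9, a smooth muscle myosin light chain, averaged 45.5 and 17.8 CPM and then 56.6 and 23.99 CPM, with effects of -1.35 ± 0.18 and -1.24 ± 0.17. Epha4, an ephrin receptor, averaged 16.6 and 6.54 CPM and then 23.5 and 8.47 CPM. Grm8, a glutamate receptor, averaged 12.6 and 5.06 CPM and then 11.6 and 4.64 CPM. Adra1a, an adrenergic receptor, had 50 counts after CGRP against 215 after PBS at 4 h, and 156 against 363 at 8 h. Their differences had intervals that spanned 0. The class held 546 genes, and 317 to 627 when single libraries were left out. It held 317 genes without CGRP 8 h replicate 1, 318 without CGRP 8 h replicate 4, 360 without PBS 8 h replicate 4 and 70 without PBS 8 h replicates 1 to 3.

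Other gene groups moved at one or both times with no called difference. In the list of ribosome biogenesis, 30 of 30 genes rose at 4 h and 19 at 8 h, with medians of 0.92 and 0.72. Polr1a, a subunit of RNA polymerase I, averaged 25.6 and 51.8 CPM at 4 h and 23.4 and 26.1 CPM at 8 h, and its difference of -0.86 ± 0.23 was not called (adjusted p = 0.0666). In the list of proteasome subunits (Proteasome), 5 of 31 rose at 4 h and 19 at 8 h, with medians of 0.15 and 0.32. Psmb3, one of them, went from 0.01 ± 0.09 to 0.48 ± 0.09 (adjusted p of the difference = 0.0734). In the list of oxidative phosphorylation, none of 27 was called at 4 h and 7 rose at 8 h. With PBS 8 h replicates 1 to 3 left out, the 8 h counts were 1, 0 and 0, and the 8 h medians were 0.65, 0.33 and 0.21. Under upper-quartile scaling 19 genes of ribosome biogenesis, 11 of the proteasome and 4 of oxidative phosphorylation rose at 8 h.

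Heat shock genes rose in 10 of 23 and fell in 1 at 4 h, and 6 rose at 8 h. In the list of stromal cytokines 4 of 16 rose and 5 fell at 4 h, and none rose and 1 fell at 8 h. Shares over all genes tested were 7.84% up and 8.37% down at 4 h, and 5.00% and 3.67% at 8 h. Il33, an alarmin cytokine, was at 157, 219, 350 and 194 CPM after PBS and 442, 632, 763 and 949 CPM after CGRP at 4 h. At 8 h it was at 177, 125, 241 and 266 CPM and 376, 199, 188 and 374 CPM. Its groups were apart at 4 h and overlapped at 8 h, and its effect was 1.60 ± 0.35 and then 0.49 ± 0.35. The difference of -1.11 ± 0.49 was not called (adjusted p = 0.324), so these data do not show whether the rise of Il33 was transient. The list of cell cycle genes had medians of -0.29 at 4 h and 0.35 at 8 h, and 1 of its 29 genes, Cdkn1b, had a called difference (adjusted p = 0.0389), lost without any 1 of 13 libraries.

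**Figure D5:**
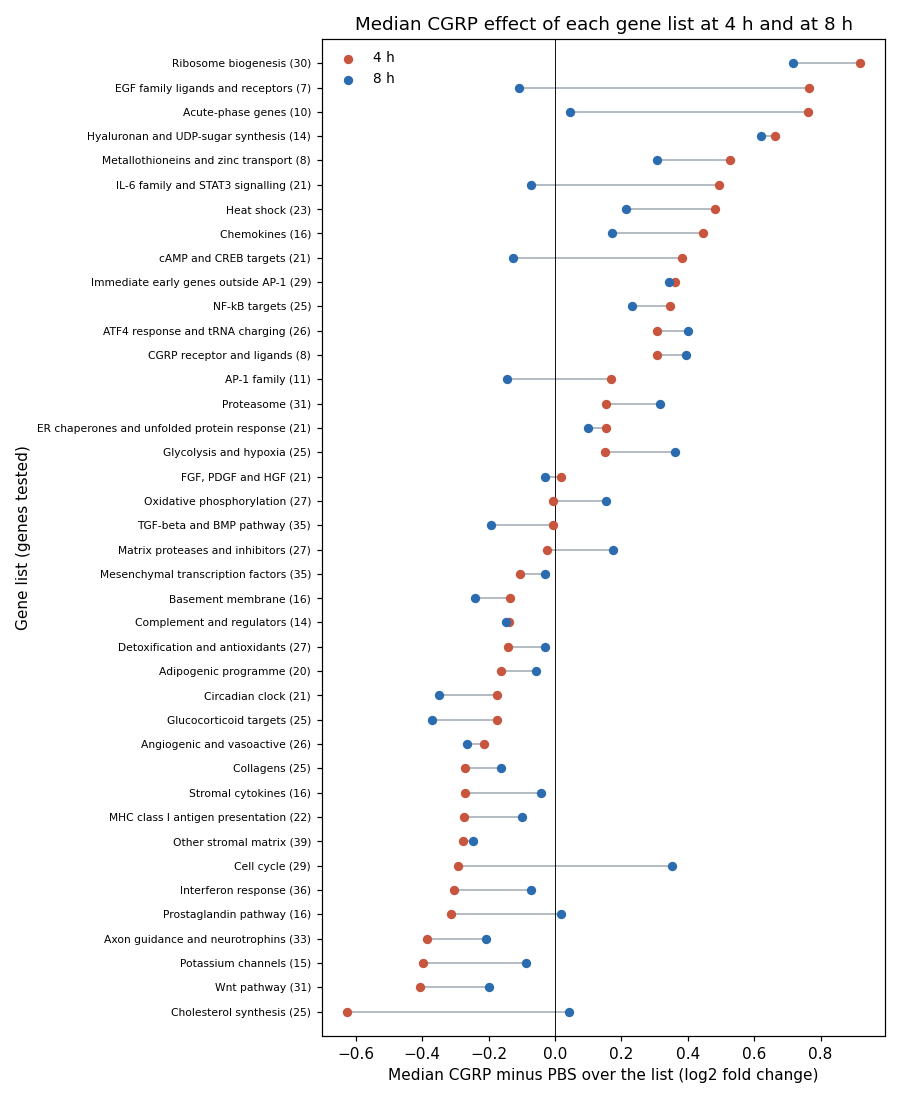
Median CGRP effect (x axis, log2 fold change) of each of the 40 gene lists (y axis, with the number of genes tested) at 4 h and at 8 h, joined by a line. Ribosome biogenesis stayed high at both times (0.92 and 0.72), while cholesterol synthesis went from -0.63 to 0.04 and IL-6 family and STAT3 signalling from 0.49 to -0.07.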

How the data were processed

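RNA of sorted muscle mesenchymal stromal cells was sequenced in 16 libraries, in 4 groups of 4. Per the labels' protocols, polyadenylated RNA of 1000 cells was amplified by PCR and made into Nextera XT libraries, which do not mark strand. Gene counts were made by the authors with STAR 2.5.4 and featureCounts on mm10, per the submitters' processing notes. The sources used here do not give the featureCounts version, the annotation or the handling of reads with several matches. The deposited counts were used unscaled. Overlapping and antisense genes cannot be told apart.

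From the counts, edgeR 4.0.16 in R 4.3.3 fitted a quasi-likelihood model (robust, TMM scaling) to all 16 libraries with a mean per group. filterByExpr kept 13949 of 52997 genes, and 12 residual degrees of freedom remained. The contrasts were CGRP against PBS at 4 h, at 8 h, their difference, and 8 h against 4 h after each injection. Tests were two-sided, adjusted by Benjamini-Hochberg over all genes tested, and called under 0.05. "Rose" and "fell" stand for such calls. CPM are TMM-scaled, errors of log2 values are SE, and interval levels are 95%. Ratios of pooled counts have exact intervals, which like the floor of 3 counts cover counting error only, since PCR copies carry no molecular identifiers. The biological coefficient of variation was 17.4%.

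The genes named by rule were, per time class and direction, up to 10 transient or late, 8 lasting, fading or growing, and 6 reversed. They were those with the largest absolute difference, or for lasting genes the largest smaller of the 2 absolute effects. Each of these had 5 CPM or more on average in the highest group, and all CGRP libraries on one side of the PBS mean. Outside the lasting class the difference given for such a gene is thus the value that picked it. Up to 3 called members or 2 others per list were added by p of the difference, and the CGRP, receptor, Gal and Il33 genes always. The comparison, lists and rule were chosen with earlier results of these data known. Replicates of a group were distinct libraries: the chi-square of counts was 6.52 to 22.7 times its degrees of freedom over 24 pairs. The calculation was tested on simulated data. Alternatives covered scaling, filters, DESeq2 1.42.0, limma 3.58.1 (voom), the threshold, a replicate block, and libraries left out. Promoter windows came from RefSeq.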

Additional observations from a re-analysis of the deposited data

Results flagged for a closer look

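The difference between the 8 h and the 4 h effect was called for 97 genes higher and 59 lower. Among the genes described above, the log2 difference was -1.62 for Ugdh, -1.26 for Uap1, -1.45 for Gfpt2, -1.42 for Eprs, -1.34 for Dio2, -1.12 for Thbd and -1.59 for Pmvk. It was -1.89 for Emd, -1.20 for Crem, -1.17 for Atf3, -1.33 for Pde10a, -0.72 for Stat3, -1.27 for Glul, -1.80 for Rgcc and -1.0 for Slc43a1. It was 0.78 for Ebf1, 1.10 for Meox1, 1.01 for Camk1d, 1.67 for Fdft1 and 0.83 for Cxcl16. It was 1.18 for Qprt, 0.79 for Tspo, 0.78 for Emp3, 0.83 for Smtn, 0.85 for Lgals3, 0.55 for Anxa2, 0.85 for Cav1 and 0.57 for Pfn1.

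Of 184 groups of 4 libraries examined, 14 held a library far from the other 3, and chance gives about 1 in 20. For library measures these were the total of 6373713 counts in CGRP 8 h replicate 4, macrophage markers at 10.3 CPM in CGRP 8 h replicate 3, lymphocyte markers at 1.68 CPM in CGRP 8 h replicate 4 and satellite cell markers at 157 CPM in PBS 8 h replicate 2. Erythroid markers stood at 44.8 CPM in PBS 4 h replicate 4, 48.2 CPM in CGRP 4 h replicate 3 and 44.3 CPM in CGRP 8 h replicate 4, against at most 4.03 CPM in the other 13 libraries.

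For gene levels CGRP 4 h replicate 4 was high in Dio2 (94.0 CPM), Thbd (1264 CPM) and Atf3 (33.4 CPM), and each of these kept the call of its difference without that library. Fdft1 was high in CGRP 4 h replicate 3 (16.7 CPM), Crem in PBS 8 h replicate 3 (16.4 CPM), Pde10a in PBS 4 h replicate 3 (22.3 CPM) and Ebf1 in PBS 8 h replicate 1 (430 CPM).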

How the results depend on the processing

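No gene named by rule changed the sign of its difference where that was called in the main fit or in the alternative. Changes of sign between uncalled differences were not counted. Of 4079 recomputed values 3589 kept their side of the threshold, 418 lost the call and 72 gained it. Only 72 of the 146 genes named by rule had a called difference in the main fit. The 418 losses come from those genes alone, and the 3589 include uncalled genes that stayed uncalled. Counts of called genes also moved. Calls of the difference (97 higher, 59 lower) were 256 and 200 with no filter on low counts, 248 and 179 with DESeq2 and 228 and 146 at an adjusted p under 0.10. With Gm10800 as a covariate, chosen after seeing the data like the leave-outs of several libraries, 44 were higher. They were 27 and 26 without the 3 PBS 8 h libraries high in Gm10800, and 33 and 30 without the 4 libraries with the most genes detected. These fits have fewer libraries, and the cause was not tested further. The transient class held 273, 260, 233, 59, 34 and 52 genes in that order of settings. The late class held 100, 89 and 72 in the first 3 and 7 and 6 in the last 2. The fading class held 19, 20, 24, 2, 2 and 3, the growing class 8, 5, 5, 2, 3 and 0. The reversed class held 23 with DESeq2, 36 at 0.10, then 2, 5 and 0. The lasting class held 822 at 0.10, then 181, 70 and 92. At 8 h 826 genes fell at 0.10, and 173 rose and 157 fell, 67 and 79, and 104 and 87 in the last 3 settings. Time after PBS called 422, 334 and 178 in the first 3 and 20 without the 3 libraries.

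Leaving out single libraries gave 47 to 118 genes with a higher and 32 to 105 with a lower effect at 8 h. At 4 h 696 to 1149 rose and 785 to 1096 fell, and at 8 h 332 to 802 and 245 to 538. Time called 17 to 280 genes after PBS and 666 to 1014 after CGRP. The classes held 52 to 141 transient, 13 to 46 late, 317 to 627 lasting, 3 to 12 fading, 1 to 2 growing and 6 to 17 reversed genes. Replicate numbers do not pair libraries: over 24 same-numbered pairs the correlation of deviations was -0.0863 to 0.0882. A fit with the replicate number as a block called 97 higher and 62 lower differences (159 in all), 133 of them among the 156. With a mean of 8244930 counts per library, low genes such as Calca rest on few counts.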
